A study of Sus scrofa with 4 samples.

Results

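A pig kidney recovered 4 weeks after transplantation into a non-human primate was compared, gene by gene, with an untransplanted kidney of the same donor genotype, GalT-/-;hCD39;hCD55. All gene symbols with at least 10 counts in either library were described, which kept 17417 of 26466 symbols. Of these, 15467 reached 10 counts in both libraries, 828 only in the untransplanted library and 1122 only in the graft library, so that a gene kept through 1 library alone tended to differ by construction. At the threshold, 241 symbols had a highest count of 10 (median log2 ratio of graft over untransplanted 0.45) and 314 symbols just outside it had a highest count of 9 (median 0.48).

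The series profiled RNA of pig kidney in 4 libraries, 1 per group, to compare 2 donor genotypes with respect to immune rejection. Both genotypes lack the galactosyltransferase gene (GalT-/-) and carry human CD39 and CD55, and the other genotype, GalT-/-;hCD39;hCD46;hCD55;TBM, also carries human CD46 and thrombomodulin and was sampled untransplanted and 6 weeks after transplantation. No unmodified pig was part of the comparison, so each value is relative to a kidney that already carried the same edits. The sources used here do not give whether the graft and the untransplanted kidney came from related animals or from the same one, nor the animals' age and sex, the primate species, its drug treatment or the promoters of the transgenes.

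The galactosyltransferase makes the alpha-Gal sugar on pig cells, to which primates carry natural antibodies. CD39 (ENTPD1) breaks down extracellular ATP and ADP, and CD55 limits the complement cascade at the cell surface. In the kidney the proximal tubule reabsorbs most of the filtered sugar, phosphate, amino acids and protein and is fuelled largely by fatty acid oxidation. The loop of Henle, distal tubule and collecting duct then adjust salt, acid and water. Injured tubular epithelium is known to lower its transporter genes and to make secreted proteins such as osteopontin.

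With 1 library on each side there is no replicate check and no test of transplantation. Counts were scaled by TMM factors (a trimmed mean of M-values, from edgeR), each log2 ratio used a prior count of 0.5, and its exact 95% interval (Clopper-Pearson, conditional binomial) covers counting error only. A gene was called higher or lower in the graft when it stood 2-fold or more from equality with an interval that did not reach equality. Such a call compares 2 libraries, not 2 conditions. Where a gene had no count in 1 library, the fold is given as a lower bound against a floor of 3 counts in that library. The tissue is a mixture, and fewer cells of a type and less RNA per cell cannot be told apart.

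The untransplanted library held 14092905 counts and the graft library 11566041, on 21104 and 21294 detected symbols, and a floor of 3 counts was worth 0.218 and 0.242 CPM (counts scaled to a common library size). Loci treated here as ribosomal RNA took 10.8% of counts in the untransplanted library and 22.4% in the graft library. They include LOC symbols that the annotation used here types as protein-coding. The 13 mitochondrially encoded genes took 10.6% and 4.23%. The pig gene GGTA1P, the galactosyltransferase symbol in the files, had 291 and 303 counts, which checks nothing about the edit because the sources used here do not give the edited part. Pig ENTPD1 had 286 and 153 counts, CD55 39 and 27, and THBD (thrombomodulin) 200 and 16, and these pig genes do not measure the human transgenes. Kidney markers such as UMOD (45070 and 6945 counts) and LRP2 (23515 and 2622) were present in both libraries, while others given below were near 0 in the graft, and of 22 genes of other cell types (urothelium, adrenal cortex, fat, skeletal muscle and nerve sheath among them) that the files list, 16 stayed under 10 counts in both. Of the other 6, FABP4 of fat and capillaries had 325 and 90 counts, the muscle gene CKM 16 and 2, and STAR of steroid synthesis 6 and 23.

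Across the 17417 genes, 2337 (13.4%) were called higher in the graft, 2483 (14.3%) were called lower and 12597 were neither. The median log2 ratio was 0.01, and the central 90% of genes lay between -1.89 and 1.83. The lower side reached farther: by the log2 ratio with its prior count of 0.5, 69 genes stood 32-fold or more lower and 36 higher. Genes without a count in either the graft or the untransplanted library enter these numbers. For CD52 and FGA, for example, the floor of 3 counts gives only at least 18.0-fold lower and at least 19.2-fold higher. The whole counting interval lay beyond 32-fold for 11 lower and 3 higher genes, and beyond 2-fold for 1453 lower and 924 higher genes. Calls were divided by abundance. Among genes with under 30 counts in the 2 libraries together, 28.9% were higher and 13.4% lower, while among the 256 most abundant genes, 7.42% were higher and 33.6% lower. The balance also depended on the scaling. Higher genes made up 48.5% of calls under TMM, 58.5% when total counts were used (2882 higher, 2048 lower) and 65.2% when total counts without ribosomal RNA loci and mitochondrially encoded genes were used (3348 higher, 1787 lower). These scalings moved the median of all genes by 0.13 and 0.23, so each value below is relative to the TMM centre, and a median within 0.23 below 0 can take the other sign.

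**Figure D1:**
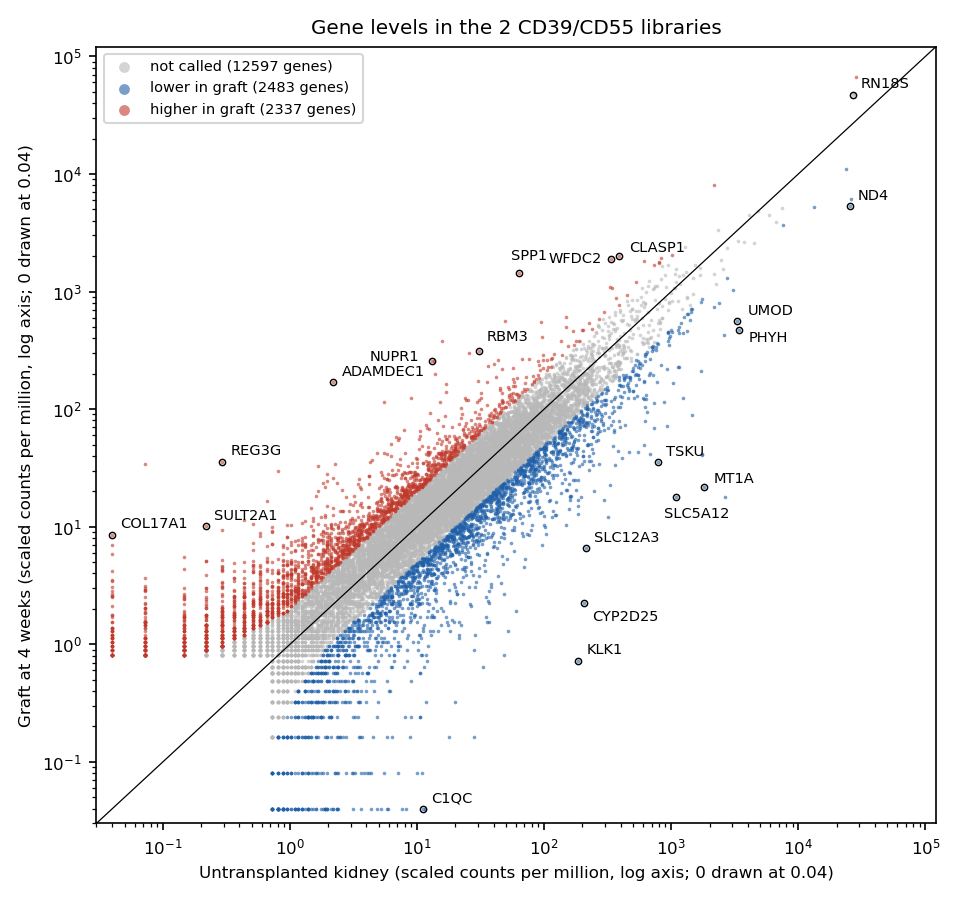
Scaled CPM of each of the 17417 genes in the untransplanted kidney (x, log axis) and the 4-week graft (y, log axis), with a line of equality and counts of 0 drawn at 0.04. Red points are the 2337 genes called higher in the graft, blue the 2483 called lower and grey the 12597 that were neither, and labelled genes are examples. KLK1, CYP2D25, MT1A and SLC5A12 lie far below the line and ADAMDEC1, REG3G and SPP1 far above it.

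A few abundant genes held the largest differences in scaled counts. Of the 8 genes with the largest loss of CPM, 5 were mitochondrially encoded: ND4, COX3, ATP6, COX2 and CYTB, which encode subunits of respiratory complexes I, IV and III and of the ATP synthase. ND4 had 347192 counts in the untransplanted library and 65964 in the graft (log2 ratio -2.25). The other genes were PHYH, UMOD and PCK1. PHYH, which starts the breakdown of branched-chain fatty acids in peroxisomes (chromosome 10, 48404298 to 48423978, Sscrofa11.1), went from 46470 counts to 5831, 7.18-fold lower. UMOD encodes uromodulin of the thick ascending limb (chromosome 3, 25473048 to 25492286) and was 5.85-fold lower, with 45070 counts in the untransplanted library and 6945 in the graft. PCK1, the cytosolic enzyme that commits carbon to gluconeogenesis, had 90982 and 47943 counts, a ratio short of 2-fold (-0.77).

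Of the 8 genes with the largest gain of CPM, 4 were loci treated here as ribosomal RNA (LOC102158401, RN18S, LOC110258214 and LOC110258600), whose reads may be counted at more than 1 locus. The annotation used here types LOC102158401, LOC110258214 and LOC110258600 as protein-coding genes without a known chromosome. LOC102163816, a long non-coding RNA (chromosome 2, 6749941 to 6794116), had 30003 counts untransplanted and 99525 in the graft, 3.68-fold higher. CLASP1, a protein that binds growing microtubule ends (chromosome 15, 29782613 to 30042727), had 5317 and 24613 counts and was 5.14-fold higher. WFDC2, a secreted protease inhibitor of epithelia (chromosome 17, 47816452 to 47824087), had 4634 and 23503 counts and was 5.63-fold higher. SPP1, which encodes osteopontin, was 22.6-fold higher.

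Genes of proximal tubule transport were low in the graft library. Of 21 sodium-coupled and sugar transporters, 14 were called lower and 1 higher, with a median of -2.22 and quartiles of -3.07 and -0.74. SLC5A12, a monocarboxylate transporter (chromosome 2, 33560988 to 33613548), was 61.7-fold lower. The phosphate carrier SLC34A1 had 12607 counts untransplanted and 890 in the graft (-3.67, 95% counting interval -3.77 to -3.58). The dicarboxylate carrier SLC13A3 had 3379 and 249 counts (-3.61) and the glucose carrier SLC5A2, the target of gliflozin drugs, 2174 and 208 (-3.23). The ratios were uneven, as seen in a pair of genes named after their values were seen. SLC4A4, which exports bicarbonate to the blood, had 19607 and 8360 counts (-1.08), and SLC5A1, the glucose carrier of the late proximal tubule, had 675 and 708 (0.22, interval 0.06 to 0.37). The member called higher was SLC2A9, a urate transporter, with 7 and 22 counts.

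Endocytosis and brush border genes were low as well, with 14 of 20 lower, none higher and a median of -1.57. MIOX, which degrades inositol, had 8351 and 618 counts (-3.61), GGT1, the gamma-glutamyl transferase of the brush border, 1405 and 124 (-3.35), and MME, the membrane peptidase neprilysin, 16895 and 1546 (-3.30). The endocytic receptors differed in size of ratio: LRP2 (megalin) was at -3.01 and its partner CUBN (cubilin), with 14021 and 5619 counts, at -1.17. CUBN was not called when total counts without ribosomal RNA and mitochondrial genes were used for scaling.

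Among 19 organic ion and drug transporters, 9 were lower and none higher (median -0.79). SLC22A6, the organic anion transporter OAT1 (chromosome 2, 8809547 to 8817124), had 272 counts untransplanted and 4 in the graft, 61.3-fold lower. SLC22A8, the anion transporter OAT3, had 15509 and 2800 counts (-2.32), and SLC51A, an exporter of steroids and bile acids, 1362 and 152 (-3.01). Amino acid transporters were mixed, with 9 of 25 lower and 2 higher (median -0.55). SLC7A5, a carrier of large neutral amino acids, had 361 and 27 counts (-3.57), and SLC6A18 2199 and 355 (-2.48). The brush border carrier SLC6A19 was within 2-fold, with 194 and 169 counts (-0.05). SLC38A1, a glutamine carrier with 95 and 265 counts (1.62), and the taurine carrier SLC6A6, with 389 and 746 (1.09), were higher. Over all 310 measured genes of the solute carrier superfamily (symbols starting with SLC), 90 were lower (29.0%) and 30 higher (9.68%), with a median of -0.31. By subfamily, the SLC13 carboxylate and sulfate carriers had a median of -3.27 (4 of 5 lower), the SLC17 phosphate and urate carriers -2.22 (4 of 7 lower and 1 higher) and the SLC22 organic ion carriers -1.51 (10 of 17 lower), whereas the SLC26 anion exchangers had 0.33, with 2 of 7 higher and 2 lower.

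Segments beyond the proximal tubule did not share 1 direction. In the thick ascending limb and distal convoluted tubule, 11 of 27 genes were lower and 2 higher, with a median of -0.83. SLC12A3, the thiazide-sensitive sodium chloride carrier of the distal convoluted tubule (chromosome 6, 18844752 to 18885497), had 2934 counts untransplanted and 81 in the graft, 32.6-fold lower. PVALB, a calcium-binding protein of the same segment, had 174 and 16 counts (-3.26). SLC12A1, the furosemide-sensitive carrier that defines the thick ascending limb beside UMOD, had 1232 and 1134 counts (0.03, interval -0.09 to 0.15). CALB1 (30 and 57 counts, 1.06) and the calcium channel TRPV5 (226 and 410, 1.01) were called higher, TRPV5 only just, and not under DESeq2 size factors.

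KLK1, tissue kallikrein, which the connecting tubule secretes into urine (chromosome 6, 55570632 to 55576398), had 2539 counts in the untransplanted kidney and 9 in the graft, 254-fold lower and the lowest ratio of all measured genes with a count in both libraries. Collecting duct genes stayed closer to 0: of 15 principal cell genes 2 were lower and 1 higher (median 0.25), and of 15 intercalated cell genes 4 were lower and 2 higher (0.15). AQP2, the vasopressin-regulated water channel, had only 14 and 17 counts. The lower members of the principal cell list were the transcription factor ELF5 (55 and 12 counts) and AQP6 (508 and 209, a call lost under total counts), which is known as a vesicle channel of acid-secreting intercalated cells, and HSD11B2, which inactivates cortisol, was higher with 11 and 23. Intercalated cells come in acid- and base-secreting kinds. SLC4A1, the anion exchanger of the acid-secreting kind, had 567 and 214 counts (-1.25) and the ammonia channel RHCG 1197 and 312 (-1.79), while SLC26A4 (pendrin), the exchanger of the base-secreting kind, had 86 and 490 (2.65) and FOXI1, the transcription factor that specifies these cells, 182 and 477 (1.54). ATP6V1B1, a proton pump subunit of both kinds, had 5398 and 3141 counts (-0.63).

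Podocyte genes, which build the filtration barrier, were lower in 10 of 20 cases and higher in 2, with a median of -1.07. DDN (dendrin) had 104 counts untransplanted and none in the graft, at least 31.2-fold lower. NPHS1 (nephrin) had 232 and 21 counts (-3.29) and the transcription factor LMX1B 87 and 8 (-3.22). The members called higher were MAGI2, a scaffold of the slit diaphragm that other cells also express, with 509 and 1106 counts (1.27), and the channel TRPC6 with 57 and 111 (1.10).

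Transcription factors of the nephron lineage stood near the median of all genes. Of 26, 24 were neither, 1 was higher and 1 lower, and the median was 0.06. HNF4A, PAX2, LHX1 and ESRRG, named here after their values were seen, had 2860 and 3407, 751 and 698, 288 and 321, and 2449 and 4009 counts, all within 2-fold. SOX9, a factor of developing and regenerating tubules, had 7 and 41 counts (2.61, interval 1.53 to 4.10), and GRHL2, a factor of the distal epithelium, 778 and 288 (-1.28). The median of these factors and that of the proximal transporters (-2.22) come from the same pair of libraries, and their difference was not tested.

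**Figure D2:**
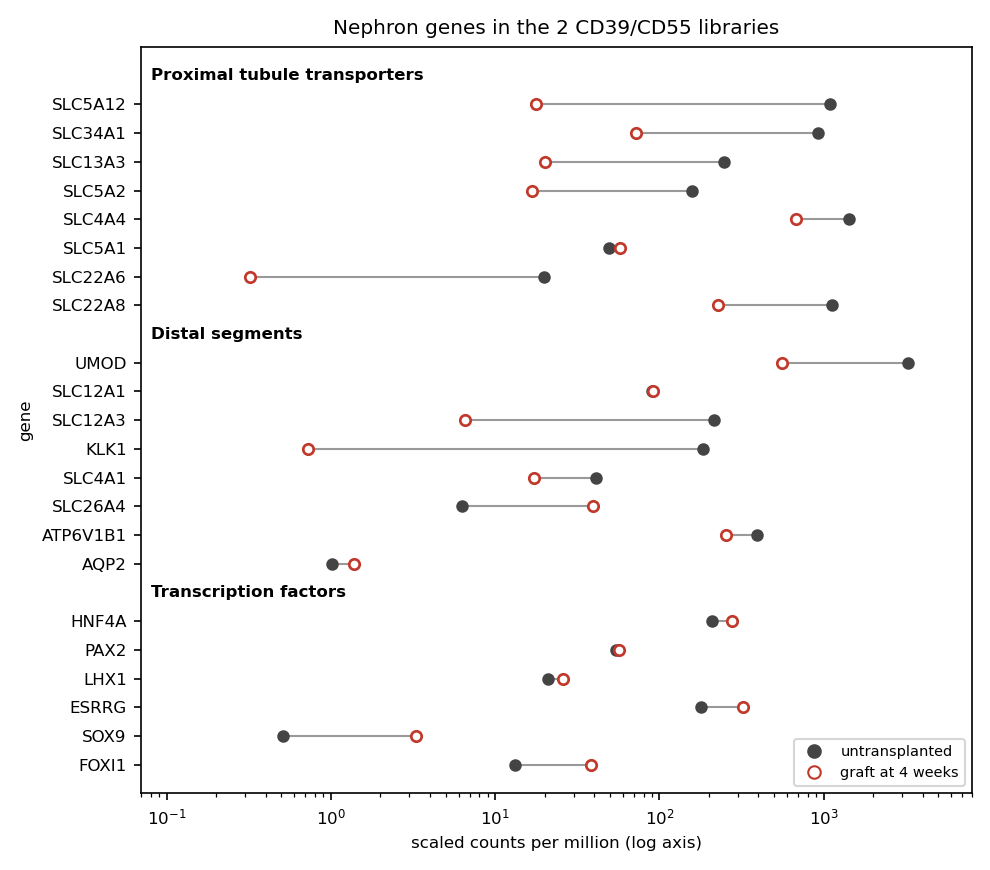
Scaled CPM (log axis) of nephron genes in the untransplanted kidney (filled) and the 4-week graft (open), with a line joining the 2 libraries of each gene. Most transporters lie to the left in the graft, SLC12A1 and SLC5A1 lie close together, SLC26A4 and FOXI1 lie to the right, and of the transcription factors shown only SOX9 and FOXI1 lie more than 2-fold apart.

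Genes of energy metabolism were broadly low. Of 33 fatty acid oxidation and peroxisome genes, 22 were lower and none higher (median -1.48, quartiles -1.95 and -0.74). AMACR, which prepares branched-chain fatty acids for oxidation, had 703 and 66 counts (-3.25), HADH 8325 and 1512 (-2.31) and CPT1A, the enzyme that lets long-chain fatty acids enter mitochondria, 1026 and 199 (-2.21). Of 28 genes of the tricarboxylic acid cycle and nuclear oxidative phosphorylation, 17 were lower and none higher (-1.12). SUCLG2 had 9185 and 2408 counts (-1.78) and FH, fumarase, 3365 and 998 (-1.60). The 13 mitochondrially encoded genes were all below 0, 8 of them called lower, from -0.10 to -2.25 with a median of -1.03. ND1, ATP6 and CYTB among these were not called when total counts were used for scaling. Among symbol families of nuclear genes, NDUFA and NDUFB, subunits of complex I, had medians of -1.09 and -0.98 and COQ, which makes coenzyme Q, -1.08. The COX family, also at -1.08 over 12 genes, holds mitochondrially encoded members, COX2 and COX3 among them, beside nuclear ones.

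Carbohydrate genes were less uniform. Of 13 genes of gluconeogenesis and fructose use, 6 were lower and none higher (-0.77). TKFC, the triokinase of fructose breakdown, had 1418 and 108 counts (-3.56), its partner KHK 662 and 100 (-2.57), and G6PC, which releases glucose, 1165 and 311 (-1.75). Of 31 glycolysis and hypoxia response genes, 9 were lower and 2 higher, with a median of -0.31. The lactate exporter SLC16A3 had 178 and 15 counts (-3.38), PGK1 2834 and 883 (-1.53) and LDHA 377 and 191 (-0.83), whereas the higher members were HK2 (17 and 51 counts, 1.70) and HIF1A (111 and 235, 1.23).

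In amino acid breakdown and creatine synthesis, 15 of 38 genes were lower and 2 higher (-0.65). GATM, which makes the creatine precursor guanidinoacetate (chromosome 1, 126361968 to 126378705), had 4355 and 150 counts, 26.2-fold lower, and BHMT, which remethylates homocysteine, 4961 and 415 (-3.43). HPD of tyrosine breakdown stood on the other side, with 144 and 728 counts (2.48), as did GLDC with 22 and 42. Drug metabolism and conjugation genes were lower in 14 of 27 cases and higher in 1 (-1.11). CYP2D25, a cytochrome P450 that hydroxylates vitamin D in the pig (chromosome 5, 6539021 to 6543643), had 2831 and 28 counts, 91.1-fold lower, and the 26 measured genes with CYP symbols had a median of -1.25, 14 lower and 2 higher. SULT1A3, the table's symbol for the sulfotransferase SULT1A1, was the higher member with 2303 and 5716 counts (1.46). Lipid and cholesterol synthesis genes had 7 of 26 lower and 2 higher (-0.59). ELOVL5 of fatty acid elongation had 3069 and 491 counts (-2.49), while the regulator SREBF1 (212 and 505, 2.64-fold) was among the higher members.

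Endocrine lists were small or close to the shares over all genes. Of 8 measured genes of the angiotensin system, 4 were lower and 1 higher (-1.22). The peptidases ACE (610 and 139 counts, -1.98) and ENPEP (7480 and 2403, -1.49) were lower, and AGT, the precursor of angiotensin, was higher with 8 and 49 counts (2.69). In the vitamin D, calcium and phosphate list, 3 of 11 were lower and 4 higher, with a median of -0.22, or 0.01 under total counts without ribosomal RNA and mitochondrial genes. CYP27B1, which activates vitamin D, had 1704 and 155 counts (-3.30), CYP24A1, which inactivates it, 26 and 49 (1.05), the parathyroid hormone receptor PTH1R 5985 and 914 (-2.56), and FGFR1 109 and 237 (1.27). Glucocorticoid response and clock genes had 4 of 32 higher and 5 lower, near the shares of 13.4% and 14.3% over all genes (median 0.15). FKBP5, which glucocorticoids induce, had 2026 and 6186 counts (1.76), but TSC22D3, another such gene, only 867 and 1065 (0.45). The clock factor ARNTL had 96 and 250 counts (1.53) and the clock output gene DBP 503 and 35 (-3.68), and the sources used here do not give the time of day of sampling.

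Injury and repair genes of the tubule were on the high side, with 13 of 32 called higher and 1 lower and a median of 0.81. SPP1 (chromosome 8, 131077786 to 131085334) had 877 counts untransplanted and 17836 in the graft. NUPR1, a stress-induced chromatin protein (chromosome 3, 18402781 to 18404411), had 180 and 3179 counts, 19.6-fold higher, the matrix protease MMP7 (chromosome 9, 33214590 to 33225080) 76 and 1412, 20.6-fold higher, and the calcium-binding protein S100A6 675 and 6899, 11.3-fold higher. Other injury markers were within 2-fold: VCAM1 had 331 and 318 counts (0.09) and LCN2 42 and 63 (0.73, interval 0.15 to 1.33). GDF15, a stress cytokine, was the lower member with 23 and 8 counts (-1.32, interval -2.74 to -0.16), and this call was lost under total counts without ribosomal RNA and mitochondrial genes. Epithelial antimicrobial and mucosal genes were higher in 8 of 17 cases and lower in 1 (1.10). REG3G, a bactericidal lectin (chromosome 3, 64847629 to 64850365), had 4 and 443 counts, 123-fold higher. S100A2 of stratified epithelia (chromosome 4, 96073496 to 96076825) had 11 and 370 counts, 37.3-fold higher, and the beta-defensin DEFB115 (chromosome 17, 35029031 to 35034148) 23 and 409, 19.7-fold higher. The lower member was lysozyme (LYZ), with 21 and 6 counts.

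Growth factor genes went both ways, 13 of 48 higher and 8 lower, with a median of -0.12 that became 0.02 under total counts and 0.12 under total counts without ribosomal RNA and mitochondrial genes. EGF, made by the distal tubule, had 2707 and 426 counts (-2.52), WNT5A 282 and 33 (-2.93) and IGF1 83 and 21 (-1.81). HGF, a factor that mesenchymal cells make and epithelium receives, had 117 and 405 counts (1.94), and the receptors ERBB4 (797 and 2116, 1.56) and ERBB3 (1443 and 3227, 1.31) were higher. By symbol, the 10 measured FGF genes had the highest median of 185 families with at least 10 members, 0.98, with 5 higher and 1 lower, among them FGF1 (24 and 96 counts, 2.13) and FGF11 (77 and 23, -1.57).

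Interferon response genes were the list with the highest median beside the antimicrobial list: 20 of 37 were higher, none lower, and the median was 1.11. The membrane protein gene IFI6 had 354 and 3693 counts (3.53), OAS2, a sensor of viral double-stranded RNA, 164 and 849 (2.52), MX1 101 and 463 (2.34) and the ubiquitin-like ISG15 88 and 379 (2.25). ISG12(A), an interferon-induced gene on no list (chromosome 7, 115356619 to 115361537), had 189 and 2457 counts, 14.4-fold higher. SLA class I genes (the pig's MHC) and peptide loading were mostly not called: of 22, 18 were neither, 2 higher and 2 lower, with a median of 0.16. The largest ratio in this list, 3.02, was also the largest among genes with SLA symbols. The lower members were CALR (-2.06) and ERAP2 (-1.16), which do not carry SLA symbols. SLA-1 had 12382 and 13437 counts (0.27), B2M, the shared light chain, 4152 and 6680 (0.84) and the peptide transporter TAP1 115 and 224 (1.11). B2M was called higher under total counts without ribosomal RNA and mitochondrial genes. The class I genes are near copies of each other, so how counts divide among them is uncertain. SLA class II genes, which present antigen to helper T cells, were lower in 8 of 10 cases with none higher, and their median was -2.12. SLA-DMB had 316 and 46 counts (-2.62), CD74, the invariant chain, 1191 and 204 (-2.39) and SLA-DQB1 1044 and 199 (-2.24).

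Transcripts of pig leukocytes were scarce in the graft library. Of 28 measured macrophage and monocyte genes, 22 were lower and 3 higher, with the lowest median of any list, -2.70. FCGR3A, an Fc receptor (chromosome 4, 88948357 to 88956513), had 160 counts untransplanted and none in the graft, at least 48.1-fold lower. C1QC, a complement C1q chain (chromosome 6, 80592591 to 80597464), had 152 and 0, at least 45.7-fold lower. TYROBP, the adaptor of activating receptors, had 150 and 1, C1QB 136 and 1, and the growth factor receptor CSF1R 62 and 2. The 3 higher members were ADAMDEC1, a metalloprotease-like gene (chromosome 14, 8455964 to 8483308), with 30 and 2102 counts (77.7-fold higher), GPNMB with 1049 and 3290 and CD14 with 21 and 48. Of 23 lymphocyte and pan-leukocyte genes, 16 were lower and none higher (-1.53): CD52 had 60 and 0 counts (at least 18.0-fold lower), CD48 43 and 0 (at least 12.9-fold lower), CD53 79 and 2, NKG7 58 and 1 and PTPRC (CD45) 141 and 27. MS4A2 and FCER1A, chains of the high-affinity IgE receptor of mast cells that were named after their values were seen, had 124 and 3, and 26 and 0 counts. In the short list of neutrophil, red cell and platelet genes, 4 of 8 were lower and 2 higher, with a median of -0.34 that became 0.57 when at least 50 counts were required. Haemoglobin HBB had 110 and 3 counts, S100A8 12 and 0 and S100A12 11 and 0, and the platelet integrin genes ITGA2B (23 and 73) and ITGB3 (15 and 58) were higher. Only 8 of the 18 genes of this short list in the files were measured, and 23 of 39 lymphocyte and pan-leukocyte genes. Every gene named in this paragraph with at most 3 counts in the graft passed the count filter through the untransplanted library alone. A gene kept that way tended to be lower by construction, so the tallies of lower calls partly reflect the filter. All values in this paragraph are counts on pig genes. The sources used here do not say what became of reads from recipient cells, and their part in any of these values was not tested.

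Vascular genes were moderately low. Of 33 endothelial genes, 14 were lower and none higher (-0.79), but the defining members were within 2-fold: PECAM1 had 948 and 521 counts (-0.71), KDR 353 and 182 (-0.80), CDH5 209 and 109 (-0.79) and VWF 71 and 44 (-0.54). Larger ratios were seen for ICAM2 (39 and 5 counts, -2.70), ROBO4 (109 and 17, -2.50) and the angiopoietin receptor TEK (251 and 70, -1.69). THBD, the endothelial anticoagulant receptor, was at -3.46 (interval -4.33 to -2.76). In smooth muscle and pericytes, 6 of 21 were lower and none higher, with a median of -0.22, or 0.02 under total counts without ribosomal RNA and mitochondrial genes. The contractile genes ACTA2 (1597 and 340 counts, -2.08) and CNN1 (76 and 14, -2.25) were lower. The pericyte gene RGS5 had 48 and 85 (0.97) and was called higher under total counts.

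Complement genes went both ways. Of 28, 10 were higher and 8 lower, with a median of 0.71. The proteases C1S (484 and 2108 counts, 2.27) and C1R (440 and 1710, 2.11), the terminal component C9 (17 and 132, 3.07) and the regulator CLU (1314 and 5074, 2.10) were higher. Lower were the macrophage products C1QA (249 and 16), C1QB and C1QC, which are also in the macrophage list, and the anaphylatoxin receptor C5AR1 (66 and 0, at least 19.8-fold lower). Of 32 coagulation genes, 9 were higher and 6 lower (-0.36). The fibrinogen genes stood together on the high side: FGB had 122 and 1535 counts (3.80), FGG 85 and 620 (3.01) and FGA 0 and 52, at least 19.2-fold higher. Factor XII (F12) had 2 and 37 counts (4.04, interval 2.40 to 7.46). The anticoagulants PROC (822 and 24, -4.92) and SERPINC1 (164 and 9, -3.97) stood on the low side, and tissue factor (F3) had 71 and 40 (-0.67).

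Acute phase and liver-type plasma proteins were likewise divided, 10 of 23 higher and 7 lower, with a median of 0.29 that became -0.46 when at least 50 counts were required. SAA3 had 6 and 142 counts (4.60), SERPINA3-2 10 and 111 (3.55), the lipocalin APOD 231 and 2020 (3.28) and the haem scavenger HPX 98 and 676 (2.93). TTR, the thyroid hormone carrier, had 72 and 0 counts, at least 21.6-fold lower, APOC3 504 and 19 (-4.55) and transferrin (TF) 3297 and 720 (-2.04). Of 26 chemokine, cytokine and receptor genes, 7 were higher and 4 lower, with a median of -0.15, or 0.08 under total counts without ribosomal RNA and mitochondrial genes. IL6 had 1 and 20 counts (3.90, interval 1.83 to 9.84), CXCL16 763 and 1563 (1.18), CXCL10 75 and 256 (1.91), CCL16 938 and 103 (-3.03) and CCL5 32 and 14 (-1.02, a call lost under total counts).

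Matrix lists lay near the shares over all genes (13.4% higher and 14.3% lower). Of 46 collagens and matrix genes, 8 were higher (17.4%) and 10 lower (21.7%), with a median of -0.06, or 0.08 under total counts and 0.18 under total counts without ribosomal RNA and mitochondrial genes. POSTN (periostin), a matricellular protein of injured tissue, had 7 and 131 counts (4.28), COL8A1 48 and 318 (2.86) and the fibroblast protease FAP 32 and 89 (1.61). The fibrillar collagens were lower: COL1A1 had 3970 and 947 counts (-1.92), COL3A1 1644 and 656 (-1.18) and COL1A2 2440 and 1060 (-1.05), of which COL1A2 lost its call under total counts and both COL1A2 and COL3A1 under total counts without ribosomal RNA and mitochondrial genes. Basement membrane genes COL15A1 (953 and 56, -3.93) and COL4A4 (2161 and 285, -2.77) and elastin (ELN, 109 and 8, -3.54) were lower as well. Of 26 matrix proteases and inhibitors, 3 were higher (11.5%) and 4 lower (15.4%), with a median of -0.02, or 0.12 and 0.22 under the same pair of scalings. MMP2 (121 and 358, 1.71) and MMP14 (173 and 396, 1.34) joined MMP7, and ADAMTS15 (1739 and 405, -1.95) was lower. Junction and keratin genes had 6 of 31 higher (19.4%) and 5 lower (16.1%), with a median of 0.10. CLDN2, the leaky claudin of the proximal tubule, had 8410 and 2138 counts (-1.83), and the simple-epithelium keratins KRT7 (253 and 528, 2.32-fold) and KRT18 (113 and 234, 2.30-fold) were higher. The annotation used here types the KRT7 locus as a long non-coding RNA.

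Genes of protein turnover and stress had separate patterns. All 77 listed ribosomal protein genes were measured, 13 were called higher and none lower, and the median was 0.54, with quartiles of 0.18 and 0.86. Their share of counts was 4.23% untransplanted and 6.79% in the graft. RPS18 had 4514 and 13608 counts (1.74), RPS24 4681 and 13360 (1.66) and RPS6 8384 and 22298 (1.56). Lysosome and autophagy genes were lower in 13 of 33 cases and higher in 1 (-0.94): GAA had 799 and 122 counts (-2.56), CTSZ 1521 and 269 (-2.35) and TPP1 5280 and 1295 (-1.88), while NPC1 had 52 and 99 (1.07). In the integrated stress and unfolded protein response, 3 of 31 were higher and 6 lower, with a median of 0.02 that became -0.19 when at least 50 counts were required. NUPR1, named above, had the highest ratio of this list (180 and 3179 counts, 4.29), and the regulator ATF4 had 616 and 1854 (1.74). The serine synthesis genes that ATF4 is known to induce, PHGDH (1453 and 239, -2.45) and PSAT1 (5329 and 2195, -1.13), were lower. The chaperone CALR (12621 and 2727, -2.06) was lower as well. Whether these values bear on ATF4 activity was not tested. PSAT1 was not called under total counts.

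Immediate early and heat shock genes were lower in 11 of 30 cases and higher in 1 (-0.43). The nuclear receptor NR4A3 had 475 and 21 counts (-4.32), FOSB 31 and 1 (-4.27, interval -10.2 to -2.22), and the small heat shock genes HSPB1 (691 and 150, -2.05) and CRYAB (3278 and 921, -1.68) were lower. Cell cycle genes were lower in 10 of 36 cases and higher in 1 (-0.53). RRM2 had 56 and 7 counts (-2.77), TOP2A 125 and 29 (-1.94) and MKI67 39 and 15, and the inhibitor CDKN2B was higher with 29 and 110 (2.05). MKI67 lost its call under total counts without ribosomal RNA and mitochondrial genes.

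In the antioxidant and iron list, 7 of 35 were lower and 4 higher (-0.43). MT1A (chromosome 6, 18672016 to 18673673), a metallothionein that binds zinc and copper, had 24661 counts untransplanted and 267 in the graft, 83.3-fold lower. MT1D had 24001 and 509 counts, 42.5-fold lower, and MT-2B, a metallothionein on none of the lists, 19963 and 1096, 16.4-fold lower. These are near copies, and the sources used here do not give how reads that match several of them were counted. Haem oxygenase HMOX1 had 1102 and 127 counts (-2.96), whereas the copper oxidase CP (643 and 2691, 2.21) and the transferrin receptor TFRC (28 and 58, 1.19) were higher.

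**Figure D3:**
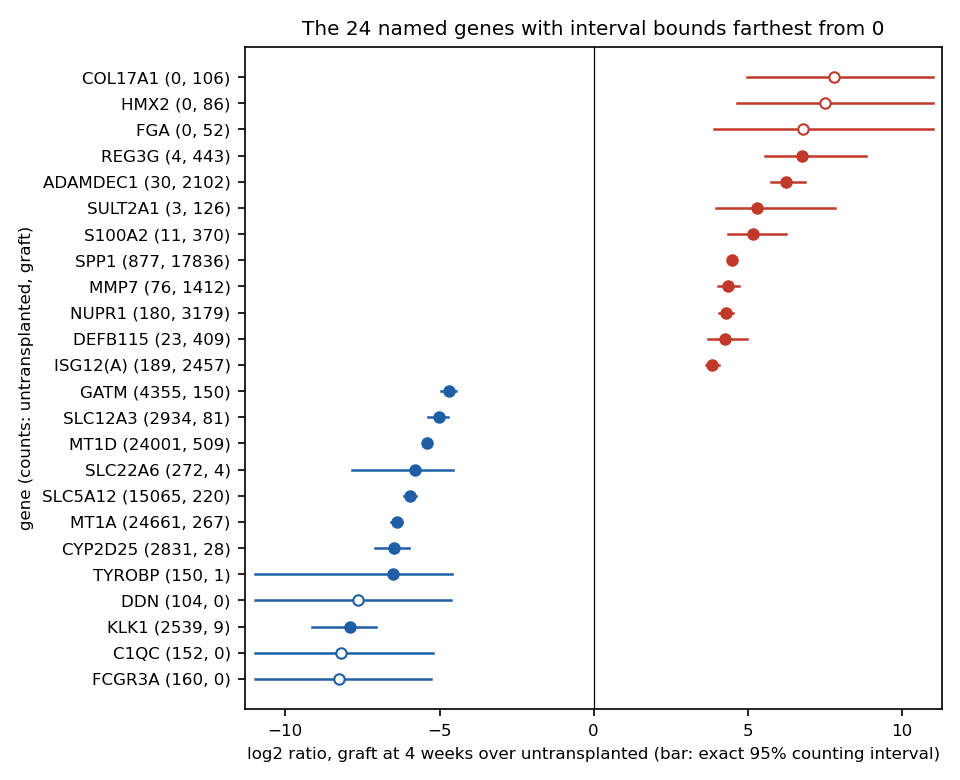
Log2 ratio of graft over untransplanted (x) of the 12 higher and 12 lower genes whose counting interval lay farthest from 0, with provisional symbols, ribosomal RNA loci and mitochondrially encoded genes left out, with counts of the 2 libraries beside each symbol. Bars are exact 95% counting intervals, drawn to 11 where they reach farther or have no end, and open points had a count of 0 in 1 library. FCGR3A, C1QC and DDN had no count in the graft, and COL17A1, HMX2 and FGA none in the untransplanted kidney.

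Most called genes were on none of the 47 lists. Off the lists, 16288 genes held 2184 higher (13.4%) and 2140 lower calls (13.1%), near the shares over all genes, while the 1129 listed genes had 13.6% higher and 30.4% lower. The lists were chosen with earlier results of these data known, so this contrast is not independent of them. Listed and unlisted genes were not compared at equal abundance. Besides KLK1, the low side off the lists was led by GIMAP4, a GTPase of lymphocytes (81 and 0 counts, at least 24.3-fold lower), OVGP1 (79 and 0, at least 23.7-fold lower), the lipoxygenase ALOX15 (98 and 1), ETNPPL, which breaks down phosphoethanolamine (146 and 3), and the glucagon receptor GCGR (161 and 4, 36.3-fold lower). More abundant genes of this set were TSKU, a secreted leucine-rich protein (10705 and 436, 22.1-fold lower), CYBA, the p22phox subunit of NADPH oxidases (9322 and 517, 16.3-fold lower), ACTC1, cardiac actin (668 and 33, 18.2-fold lower), C3H16orf89 (491 and 19, 23.3-fold lower) and APOLD1 of endothelium (390 and 15, 23.4-fold lower).

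On the high side, COL17A1, a collagen that anchors basal epithelial cells (chromosome 14, 114959404 to 115007734), had 0 and 106 counts, at least 39.2-fold higher. The homeobox gene HMX2 (chromosome 14, 132691108 to 132699477) had 0 and 86, at least 31.8-fold higher. SULT2A1, a sulfotransferase of steroids and bile acids (chromosome 6, 53525496 to 53536723), had 3 and 126 counts, and the airway and stomach mucin MUC5AC 0 and 32, at least 11.8-fold higher. RBM3, an RNA-binding protein that cold induces (chromosome X, 42704019 to 42707587), had 420 and 3850 counts, 10.2-fold higher, and DIP2A 230 and 1730, 8.34-fold higher. The glutamate receptor GRM3 (31 and 422 counts, 15.1-fold), C7H6orf222 (4 and 115, 31.9-fold), IER5L (23 and 248), the glycosyltransferase B3GNT7 (25 and 289, 12.8-fold) and alpha-fetoprotein AFP (8 and 104, 14.4-fold) completed the set. In all, 65 genes had no count untransplanted and at least 10 in the graft, 46 of them with provisional LOC symbols, and 86 had no count in the graft and at least 10 untransplanted, 24 of them LOC symbols. The highest counts among these were 106 and 160.

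Neighbouring genes were sometimes called together. There were 17 runs of at least 5 adjacent measured genes with the same call, and most genes named from them were chosen after their values were seen. A run of 8 lower genes lay on chromosome 18 from 6309583 to 6452975, with a median of -3.82: the polyamine-degrading oxidase AOC1 (4629 and 905 counts), TMEM176B, TMEM176A and the GTPases GIMAP5, GIMAP1 (88 and 2), GIMAP6, GIMAP4 and GIMAP7. A run of 7 on chromosome 6 from 18634735 to 18673673 held the metallothioneins (median -5.41), among them MT3 with 356 and 125 counts and the provisional LOC102166944 with 36423 and 220. Another 8 genes on chromosome 7 from 24227572 to 24977238 held SLA class II (-1.93), and 5 on the same chromosome from 20441357 to 20663498 held SLC17A4 (1088 and 117 counts), SLC17A1 (1058 and 205), SLC17A3 and SLC17A2 (-2.80), which are related transporters. On chromosome 13, from 29095900 to 29618915, a run of 5 lower genes (-4.79) held CXCR6, XCR1 and CCR1, chemokine receptors with 14 to 45 counts untransplanted and at most 1 in the graft. Runs of higher genes included 6 genes with CLCA4 (4 and 26 counts) and CLCA1 (3 and 16) on chromosome 4 (2.54) and 5 genes ending at SERPINA3-2 on chromosome 7 (1.94). Reads that overlap or match several neighbours may link such calls, and this was not tested.

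Classes of gene differed in their balance of calls. Among 3492 provisional LOC symbols, 26.2% were higher and 12.8% lower, against 10.2% and 14.6% of the 13925 other symbols. Long non-coding RNAs had a median of 0.37 over 2392 genes, with 27.6% higher and 11.3% lower, and of 21 tRNA genes 12 were higher and 1 lower (1.52). The 21 tRNA genes together held 0.00274% of counts untransplanted and 0.00497% in the graft. Over all genes with under 30 counts in the 2 libraries together, 28.9% were higher and 13.4% lower. Classes were not compared at equal abundance. Protein-coding genes were ordered by the length they span in the genome. Those under 5 kb had a median of -0.23 (12.7% higher, 23.0% lower), those of 5 to 20 kb -0.22, of 20 to 50 kb -0.08, of 50 to 150 kb 0.11, and those of 150 kb or more 0.29 (13.6% higher, 6.42% lower). In the 6-week pair the medians stood in the same order, -0.40, -0.33, -0.09, 0.26 and 0.46. Symbol families at the high end besides FGF were TTLL tubulin ligases (0.81), DNAH axonemal dyneins (0.70), ZFP zinc finger genes (0.63), HS heparan sulfate enzymes (0.55) and MARCH ubiquitin ligases (0.54). The lowest was SLA, at -1.36, which holds class I and class II genes.

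**Figure D4:**
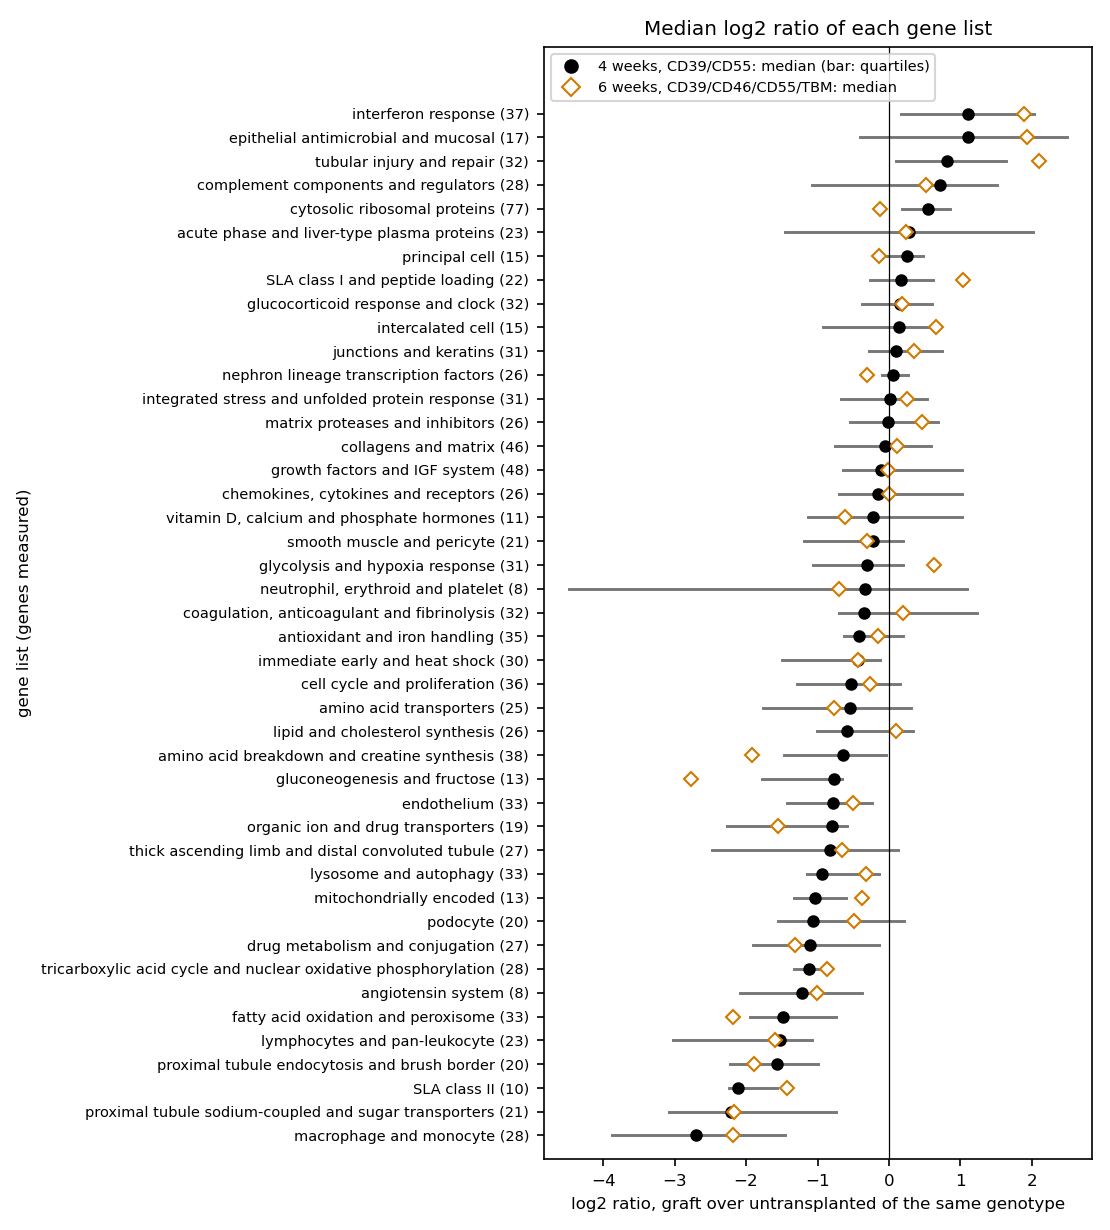
Median log2 ratio of graft over untransplanted (x) for each gene list with at least 8 measured genes (number in brackets). Black points with bars are the median and quartiles in the 4-week CD39/CD55 pair, and open diamonds are the medians in the 6-week pair of the other genotype. Macrophage and proximal transporter lists lie lowest and interferon and antimicrobial lists highest, and the 2 pairs lie apart for gluconeogenesis, glycolysis, amino acid breakdown, injury and ribosomal proteins.

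The 4-week pair was then set beside the 6-week pair of GalT-/-;hCD39;hCD46;hCD55;TBM, which shares no library with it. The pairs differ at once in genotype, in weeks, in recipient and in any batch of preparation, which cannot be told apart. In the 6-week pair, 2846 of 17386 genes (16.4%) were called higher and 2931 (16.9%) lower. Over the 16635 genes measured in both pairs, the log2 ratios had a Pearson correlation of 0.62 and a Spearman correlation of 0.58 across genes, which are not independent replicates. Of the genes higher at 4 weeks, 1007 (48.6%) were also higher at 6 weeks, where they made up 39.4% of the higher genes, and 67 were lower there. Of the genes lower at 4 weeks, 1365 (58.0%) were also lower at 6 weeks (48.3% of those), and 54 were higher. The difference of the log2 ratios was called under the same rule with a 95% Wald counting interval. It was higher in the 4-week pair for 2091 of 18168 genes (11.5%) and lower for 1871 (10.3%).

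**Figure D5:**
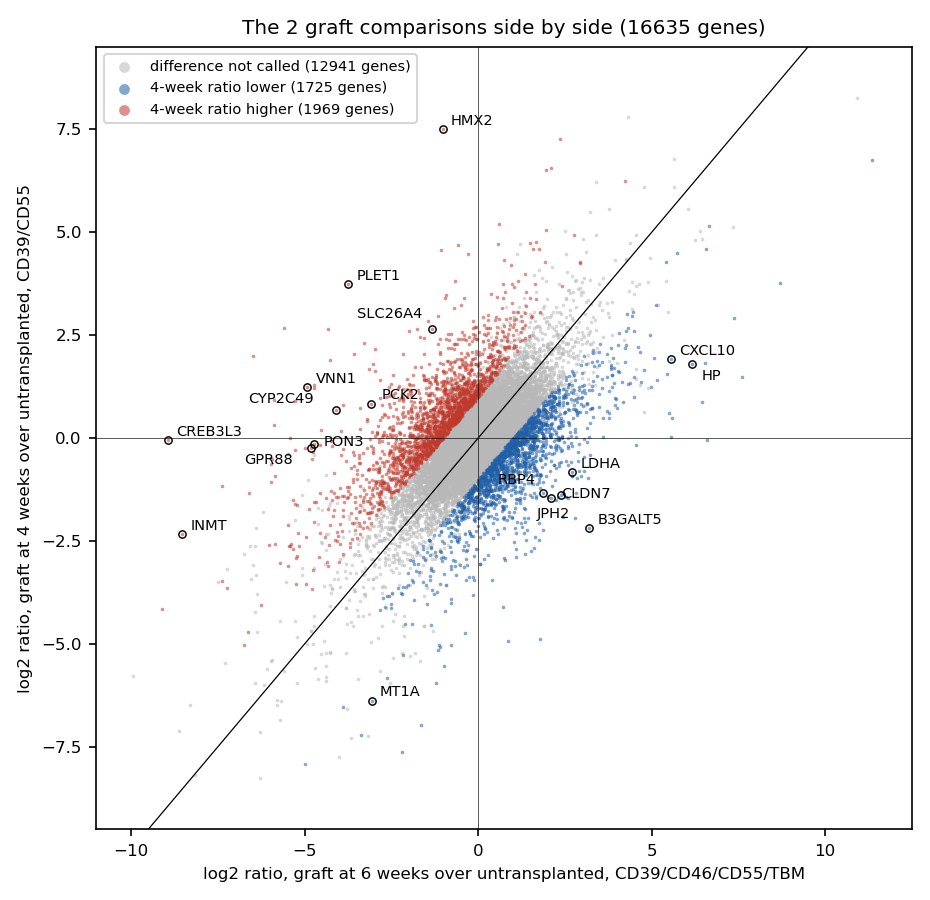
Log2 ratio of graft over untransplanted for 16635 genes in the 6-week pair (x) and the 4-week pair (y), with a line of equality. Red and blue points are genes whose 4-week ratio was called higher or lower than the 6-week ratio by counting error alone, and circled genes are among those whose interval of that difference lies farthest from 0. LDHA and CXCL10 lie below the line and HMX2, PLET1, INMT and CREB3L3 above it.

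Metabolic lists stood in different order in the 2 pairs. The median of gluconeogenesis and fructose genes was -0.77 at 4 weeks and -2.77 at 6, that of amino acid breakdown -0.65 and -1.91, and that of fatty acid oxidation -1.48 and -2.18. It was -1.12 at 4 weeks and -0.87 at 6 for the tricarboxylic acid cycle and nuclear oxidative phosphorylation, and -0.59 and 0.10 for lipid and cholesterol synthesis. Of 38 amino acid breakdown genes, 17 had a higher ratio in the 4-week pair. PCK2, the mitochondrial partner of PCK1, had 1507 and 2427 counts at 4 weeks and 3229 and 313 at 6, a difference of 3.91 (interval 3.72 to 4.10). CREB3L3, a transcription factor of lipid metabolism, had 56 and 49 against 271 and 0, and HNF4A, a regulator of proximal tubule genes, 2860 and 3407 against 3303 and 819 (difference 2.12). PON3, a lactonase, had 117 and 95 against 145 and 4, VNN1, the pantetheinase of the brush border, 40 and 86 against 128 and 3, and the methyltransferase INMT 891 and 160 against 1112 and 2. The proximal transporter list had medians of -2.22 and -2.17.

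Glycolysis, injury and interferon lists had lower medians at 4 weeks than at 6. The glycolysis and hypoxia list had medians of -0.31 and 0.62, and 16 of its 31 genes had a lower ratio in the 4-week pair. LDHA, lactate dehydrogenase, had 377 and 191 counts at 4 weeks and 223 and 1191 at 6, a difference of -3.53 (interval -3.86 to -3.21). The injury list had medians of 0.81 and 2.10, with 11 of 32 lower in the 4-week pair, and the interferon list 1.11 and 1.89. CXCL10 had 75 and 256 counts against 12 and 481 (difference -3.64), and haptoglobin (HP) 18 and 58 against 9 and 554 (-4.34). MT1A, which started from 24661 and 3259 counts in the 2 untransplanted libraries, ended at 267 and 317. Each difference between the pairs also holds any gap between the untransplanted kidneys. Among others, that gap was wide for MT1A and for CYP24A1 (26 counts untransplanted in the 4-week pair, 1221 in the 6-week pair). It was wide for CXCL10 (75 and 12) and CREB3L3 (56 and 271) as well.

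Ribosomal protein and mitochondrially encoded genes differed between the pairs too. The ribosomal protein list had medians of 0.54 and -0.13, with none of 77 called in the 6-week pair and 22 with a higher ratio at 4 weeks. RPS24 had 4681 and 13360 counts at 4 weeks and 13913 and 8783 at 6, so its counts also differed between the untransplanted libraries. The mitochondrially encoded list had medians of -1.03 and -0.38. SULT2A1, with 3 and 126 counts at 4 weeks, had 1 and 1 at 6 weeks, and HMX2 and its neighbour HMX3, the latter named after its values were seen, with 0 and 86 and 0 and 19 counts at 4 weeks, had 70 and 28 and 3 and 2 at 6 weeks.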

How the data were processed

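RNA of pig kidney was sequenced in 4 libraries, 1 per group, from a Lexogen QuantSeq kit, per the labels' protocols. The values used are raw read counts per gene symbol as deposited by the authors. The submitters' processing notes name Bowtie2, bedtools and the pig build Sscrofa11.1. The sources used here do not give versions, settings, the use of strand, or the handling of reads with several matches and of reads from the primate recipient.

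Lines that shared a symbol were summed, and all 26466 symbols matched a RefSeq table of the same build, which gave positions and gene types. TMM factors were computed in edgeR 4.0.16 (R 4.3.3) over the 4 libraries, and DESeq2 1.42.0 gave the alternative size factors. Ratios used genes with at least 10 counts in either library, a prior count of 0.5 and exact 95% Clopper-Pearson intervals. The difference between pairs of libraries used a Wald interval. The calculation was tested on simulated data. No test of replicates is possible with 1 library per group, and intervals and floors cover counting error only, since reads without molecular identifiers are not independent molecules.

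The comparison and the 47 gene lists (1325 genes, 1265 of them found in the files) were chosen with earlier results of these data known. Named genes were the 12 higher and 12 lower genes with the interval bound farthest from 0, the 8 largest gains and losses of CPM, up to 4 called members in each direction and the defining members of each list, the 12 higher and 12 lower genes on no list, the 10 highest and 10 lowest differences from the 6-week pair, and the 6 highest and 6 lowest symbol families. Provisional LOC symbols were left out of all of these but the gains and losses. A planned description of promoter motifs was not run, because promoter sequences were not used here. Alternatives covered the scaling, the count filter, the prior count, the call rule and provisional symbols. Some genes of the named set are not reported here.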

Additional observations from a re-analysis of the deposited data

Results flagged for a closer look

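In 13 named genes the 4-week and the 6-week pair were called in opposite directions. With 1 library per group, whether the conditions differ was not tested, and each difference below is the 4-week minus the 6-week log2 ratio, with counts given as untransplanted and graft. Genotype, weeks, recipient and any batch cannot be told apart.

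Among genes higher at 4 weeks and lower at 6, HMX2, a homeobox gene, had 0 and 86 counts against 70 and 28 (difference 8.53, Wald counting interval 4.69 to 12.4). PLET1, an epithelial surface protein, had 4 and 54 against 270 and 16 (7.49), and VNN1, a pantetheinase, 40 and 86 against 128 and 3 (6.17, interval 4.53 to 7.81). SLC26A4, the exchanger of base-secreting intercalated cells, had 86 and 490 against 526 and 172 (3.97). Distal calcium and steroid genes were in this set too: CALB1 had 30 and 57 against 180 and 36 (3.08), HSD11B2 11 and 23 against 34 and 8 (2.92), and CYP24A1 26 and 49 against 1221 and 383 (2.43). The untransplanted libraries themselves differed for each of these genes, as these counts show, and each difference holds that gap.

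Among genes lower at 4 weeks and higher at 6, the glycosyltransferase B3GALT5 had 22 and 4 counts against 3 and 26 (-5.37, interval -7.54 to -3.20), and the stress cytokine GDF15 23 and 8 against 3 and 20 (-4.14, interval -6.13 to -2.15). JPH2, a junctophilin, had 68 and 23 against 213 and 917 (-3.79), and the tight junction gene CLDN7 315 and 103 against 55 and 193 (-3.55). The retinol carrier RBP4 had 349 and 125 against 92 and 276 (-3.20), and the IGF-binding protein IGFBP2 738 and 254 against 293 and 677 (-2.88). Here too the untransplanted libraries differed for each of these genes, and each difference holds that gap. For JPH2 the untransplanted count was lower in the 4-week pair, and for the others it was higher.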

How the results depend on the processing

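Of 2337 higher calls, 1345 were counted with a minimum of 50 counts, 924 when the whole interval had to lie beyond 2-fold, 719 at 4-fold or more and 1421 without LOC symbols. Of 2483 lower calls, 1949 were counted with a minimum of 50 counts, 2035 without LOC symbols, 1453 when the whole interval had to lie beyond 2-fold and 762 at 4-fold or more. These settings test fewer genes or ask for more. DESeq2 size factors gave 2303 higher and 2522 lower, and TMM over the 2 compared libraries 2346 and 2477. Genes whose ratio differed between the pairs numbered 3962, and from 2941 to 4095 under the alternatives. Of 314 calls among 346 named genes, DESeq2 size factors lost 3 and a prior count of 2 lost 2. Total counts lost 10 and gained 1 (RGS5). Total counts without ribosomal RNA and mitochondrial genes lost 17 and gained 5 (B2M, PCK2, RGS5, RN18S and LOC110258214). None took the opposite direction. The chemokine list's median of -0.15 also became 0.17 with a minimum of 50 counts. No paired analysis was possible because each group had 1 library, and for the same reason no library could be left out. For a gene with no count, the floor of 3 counts allows levels up to 0.218 CPM untransplanted and 0.242 CPM in the graft, and ratios that rest on 1 to 3 counts have wide intervals.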
